A study of Homo sapiens with 2 samples.

Results

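Accessible chromatin was examined around 45 genes of the WNT signalling pathway in human embryonic stem cells: 19 WNT ligands, 12 receptors, 9 secreted antagonists, and a nuclear group of 5 genes formed by AXIN2 and the TCF and LEF factors. The genes were chosen by name, out of 19974 protein-coding genes, and a peak belonged to a gene when its summit lay in the gene body or within 50 kb of it in hg38. By this rule 1091 of 295753 primed peaks and 1040 of 299673 hTBLC peaks were included. The assay was ATAC-seq, which reads out open DNA through the adapters that a transposase leaves in it. The line was WIBR3, an established human embryonic stem cell line. One library came from primed WIBR3 cells, the conventional culture state, and 1 from WIBR3 hTBLCs, the study's totipotent blastomere-like cells, which its title ties to repression of the spliceosome. Both groups carry the cell type label hESC, and neither the agent nor the culture time of the hTBLCs was analysed here. With 1 library a group no test between the states was possible, and every interval below covers counting error only.

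WNT proteins are secreted lipid-modified ligands that bind Frizzled receptors together with the co-receptors LRP5 or LRP6. In the canonical branch this binding stops the destruction complex from degrading β-catenin, which then enters the nucleus and works with TCF and LEF factors on target genes such as AXIN2. SFRP proteins, FRZB among them, bind WNT ligands outside the cell, and DKK1, DKK2 and DKK4 act mainly on the LRP co-receptors. DKK3 belongs to the same family by sequence. In human pluripotent cells the pathway is known for its part in mesendoderm differentiation and in the shift between pluripotent states.

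The RefSeq promoter windows of 8 of these genes, read 5′ to 3′ on the sense strand of GRCh38.p14 from 250 bases before to 50 bases after the start, are given because the results below turn on their starts. The first 3 belong to ligands with a start region in the primed library alone, WNT8B had none in either library, FZD1, FZD8 and DKK1 had higher hTBLC pileups, and LRP5 had a start region in the hTBLC library alone. Capitals mark matches, on either strand, to CTTTGAT or CTTTGAA (TCF/LEF core), ATGCAAA (octamer core), TGANTCA (AP-1), GGAATG (TEAD core) or CCGCCC (GC box), with overlapping matches run together.
WNT3A: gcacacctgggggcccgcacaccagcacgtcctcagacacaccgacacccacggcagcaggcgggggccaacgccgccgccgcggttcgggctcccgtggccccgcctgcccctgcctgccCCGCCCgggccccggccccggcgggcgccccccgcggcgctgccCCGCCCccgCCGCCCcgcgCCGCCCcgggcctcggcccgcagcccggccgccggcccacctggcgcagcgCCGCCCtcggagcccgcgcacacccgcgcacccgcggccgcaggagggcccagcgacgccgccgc
WNT5A: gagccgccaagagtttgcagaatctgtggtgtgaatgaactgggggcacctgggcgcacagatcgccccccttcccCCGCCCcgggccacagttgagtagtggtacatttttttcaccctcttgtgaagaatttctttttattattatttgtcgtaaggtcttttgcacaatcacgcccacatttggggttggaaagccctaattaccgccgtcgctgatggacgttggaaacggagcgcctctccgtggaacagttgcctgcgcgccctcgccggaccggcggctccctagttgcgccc
WNT10A: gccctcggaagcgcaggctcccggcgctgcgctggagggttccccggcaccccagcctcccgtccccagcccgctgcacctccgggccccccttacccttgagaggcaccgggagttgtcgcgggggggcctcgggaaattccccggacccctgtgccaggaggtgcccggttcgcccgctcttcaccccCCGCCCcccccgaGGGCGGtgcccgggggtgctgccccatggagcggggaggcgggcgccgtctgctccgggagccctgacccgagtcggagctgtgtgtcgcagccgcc
WNT8B: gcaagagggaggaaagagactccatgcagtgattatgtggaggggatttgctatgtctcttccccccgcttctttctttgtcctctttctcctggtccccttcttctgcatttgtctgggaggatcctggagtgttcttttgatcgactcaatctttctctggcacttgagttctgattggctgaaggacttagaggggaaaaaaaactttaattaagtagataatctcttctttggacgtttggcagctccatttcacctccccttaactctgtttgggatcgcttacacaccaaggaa
FZD1: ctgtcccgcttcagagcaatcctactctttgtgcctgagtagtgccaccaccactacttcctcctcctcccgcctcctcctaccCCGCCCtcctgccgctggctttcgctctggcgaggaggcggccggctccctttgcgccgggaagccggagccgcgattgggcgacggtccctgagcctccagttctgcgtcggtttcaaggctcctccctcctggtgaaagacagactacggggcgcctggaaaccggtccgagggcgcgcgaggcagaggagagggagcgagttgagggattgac
FZD8: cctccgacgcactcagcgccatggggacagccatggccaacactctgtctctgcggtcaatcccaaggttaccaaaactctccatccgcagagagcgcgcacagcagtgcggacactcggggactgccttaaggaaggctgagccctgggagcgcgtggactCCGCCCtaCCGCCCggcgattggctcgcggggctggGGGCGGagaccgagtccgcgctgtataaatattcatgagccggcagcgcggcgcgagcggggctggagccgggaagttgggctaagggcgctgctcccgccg
LRP5: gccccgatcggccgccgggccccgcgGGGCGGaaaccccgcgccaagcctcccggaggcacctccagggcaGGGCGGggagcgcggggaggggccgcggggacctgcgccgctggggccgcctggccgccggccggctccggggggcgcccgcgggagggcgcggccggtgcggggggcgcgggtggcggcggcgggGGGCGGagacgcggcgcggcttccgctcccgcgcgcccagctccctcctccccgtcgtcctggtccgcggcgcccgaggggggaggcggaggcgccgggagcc
DKK1: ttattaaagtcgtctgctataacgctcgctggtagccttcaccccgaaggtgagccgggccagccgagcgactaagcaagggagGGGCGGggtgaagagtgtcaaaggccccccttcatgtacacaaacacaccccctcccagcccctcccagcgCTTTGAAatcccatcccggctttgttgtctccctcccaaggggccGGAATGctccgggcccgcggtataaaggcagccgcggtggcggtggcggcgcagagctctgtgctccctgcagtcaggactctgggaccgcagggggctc

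In genome order these windows are WNT3A at chr1:228006748-228007047, WNT10A at chr2:218880602-218880901 and WNT5A at chr3:55487257-55487556. They continue with FZD1 at chr7:91264183-91264482, FZD8 at chr10:35642247-35642546, DKK1 at chr10:52314031-52314330, WNT8B at chr10:100462759-100463058 and LRP5 at chr11:68312341-68312640. WNT5A and FZD8 lie on the minus strand and the others on the plus strand. Promoter windows were matched for 31 of the 45 genes. Those without one were WNT7B, WNT10B, WNT11, FZD2, FZD3, FZD6, FZD7, FZD10, SFRP1, DKK2, DKK3, DKK4, LRP6 and AXIN2.

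The GC box was the one motif held by most of these promoters, 27 of 31 (87.1%), against 58.5% of 15813 RefSeq promoters of the same length. A TCF/LEF core was present in 1 of 31, the CTTTGAA of DKK1, against 3.65% of all promoters for CTTTGAA and 1.95% for CTTTGAT. The octamer core occurred in SFRP2 alone (3.74% of all promoters) and the TEAD core in WNT16 and DKK1 (11.7%). None of the 31 held the AP-1 letters, which 5.75% of all promoters hold. A match describes letters, and no match says only that these letters are not in the window. Median GC content was 69.7% for the 31 promoters and 62.7% for all, from 45.7% in WNT8B to 86.7% in LRP5.

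After overlapping peaks of a library were merged, the libraries held 242009 primed and 250859 hTBLC regions. Signal is given as summit pileup, the number of reads or fragments stacked at the summit, whose median over peaks was 18.0 in primed and 17.0 in hTBLC. The lowest background level behind the calls was 1.79 and 1.96, and ratios of hTBLC to primed pileup were divided by their quotient of 1.09. All 8 pluripotency marker genes had a start region in the primed library and 7 had one in both, POU5F1 being the exception, with summed start pileups of 543 and 574. Start regions in both libraries were also present at 4 of 4 endoderm, 4 of 4 mesoderm, 4 of 6 fibroblast and 3 of 5 trophectoderm marker genes. In that order, summed start pileups in primed and hTBLC were 107 and 135, 286 and 245, 255 and 231, and 183 and 87. The trophectoderm sum counted TFAP2A, with a start region of 58 in primed alone. Of 3 neural marker genes 1 had a start region in both and 2 in primed alone, with summed start pileups of 102 and 45. Markers of other cells in either library were not otherwise tested.

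At the gene starts, antagonists, nuclear factors and all receptors but LRP5 had regions in both states, and 5 of the 6 starts called in a single library were those of ligands. A start region was one that reached within 1 kb of the RefSeq start, or of either gene end for the 14 genes without one. Such a region was present in both libraries for 37 of 45 genes, against 76.4% of all protein-coding genes. It was present in primed alone for 5 genes (3.37% of all genes), in hTBLC alone for 1 (2.64%), and in neither for 2 (17.6%). The 5 were WNT1, WNT3A, WNT5A, WNT6 and WNT10A, the 1 was LRP5, and the 2 were WNT5B and WNT8B. The 37 counted WNT11, whose primed and hTBLC regions lay at opposite ends of the gene. Neither of these WNT11 regions touched a region of the other library. Ligand starts were the weakest of the 4 groups, with a median primed pileup of 31.0 over the 17 genes with a region. The medians were 98.0 for 11 receptors, 79.0 for 9 antagonists and 112 for the 5 nuclear genes, beside 77.0 over 15928 protein-coding genes with a primed start region.

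**Figure D1:**
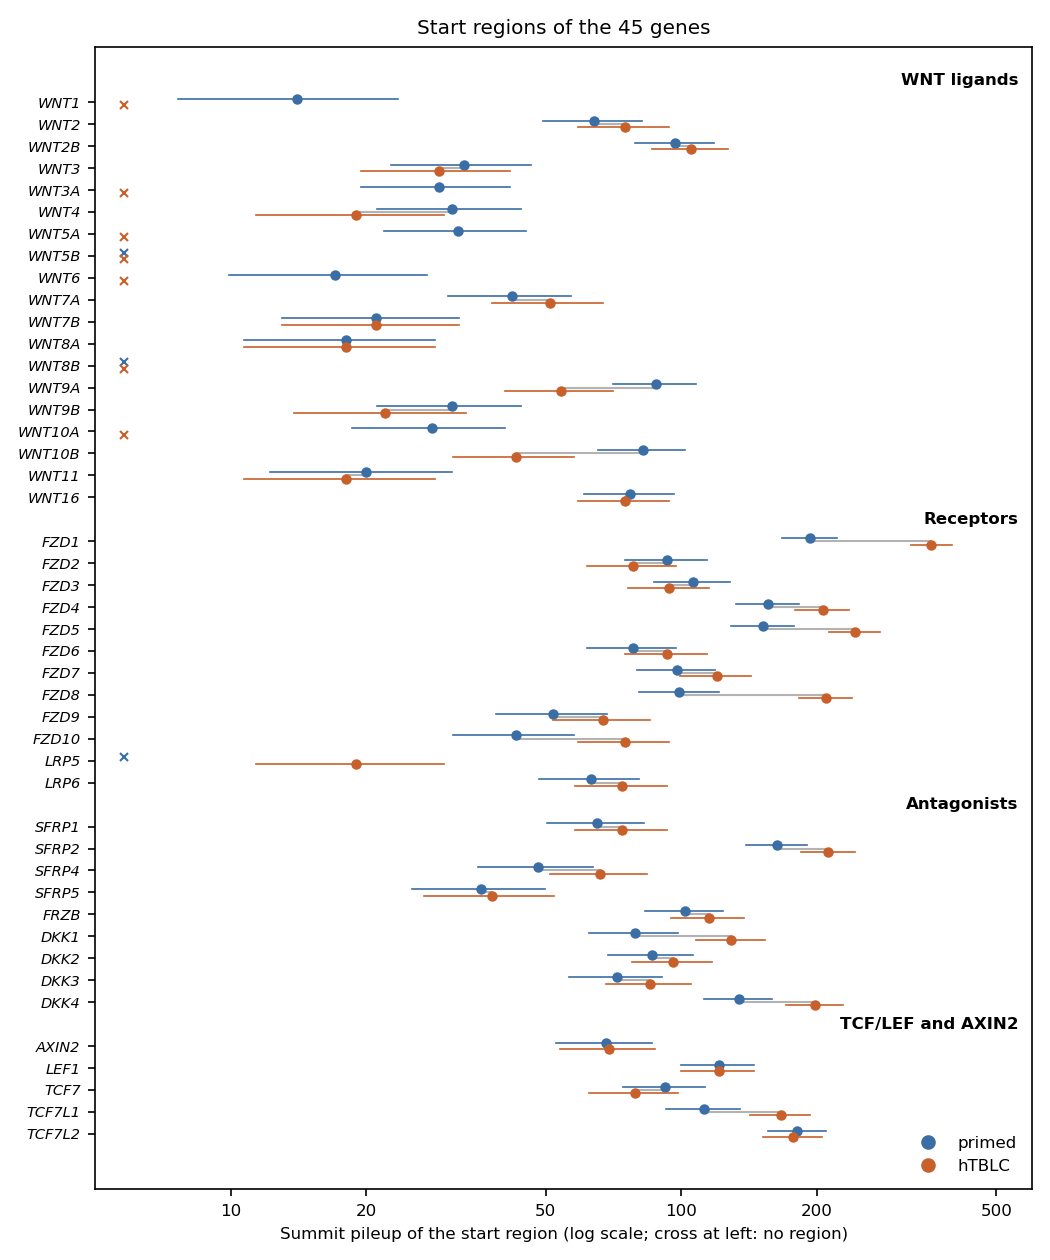
Summit pileup at the start of each of the 45 genes on a log axis, in the primed (blue) and hTBLC (orange) library, with exact Poisson 95% intervals and a cross where no region was called. The ligands fill the low end, WNT1, WNT3A, WNT5A, WNT6 and WNT10A have a primed point alone, and FZD1 has the highest hTBLC value, 359.

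The ligand start regions called in primed alone were weak. WNT3A, a canonical ligand that induces mesoderm in the embryo, had a pileup of 29 (95% interval 19.4 to 41.6) at its start. WNT5A, a mainly non-canonical ligand, had 32 (21.9 to 45.2). WNT10A had 28 (18.6 to 40.5), WNT6 had 17 (9.90 to 27.2) and WNT1 had 14 (7.65 to 23.5). The authors' fold over local background was 2.04 to 4.55 at these 5 regions, and none touched an hTBLC region. Among them the WNT6 region alone reached into the promoter window, by 108 bp, and the regions of WNT1, WNT3A, WNT5A and WNT10A lay beside it. The highest pileup of the 5, WNT5A's, was below the 77.0 median of primed starts. The deposited primed list also reached down to a lower −log10 p than the hTBLC list. The WNT1 region was the weakest of the 5, with a −log10 q of 1.11. An hTBLC site that weak could have gone unlisted, so the WNT1 call need not mark a difference between the states. With a start window of 2500 bp the primed-alone genes numbered 1, WNT10A. At a −log10 q of at least 5 they were WNT3A and WNT10A. Among the 50000 strongest regions of each list no start was in primed alone, and the 5 in hTBLC alone were those of WNT7A, FZD9, FZD10, SFRP1 and SFRP4, so ligands no longer made up most of the starts in a single library.

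Other regions of WNT6 and WNT5A were shared between the states. In the body of WNT6, 1254 bp past the start, a region had a pileup of 109 in primed and 76 in hTBLC. WNT5A had a shared region beside the distant end of its annotated body, at −17975 bp from the start used here, with 41 in primed and 31 in hTBLC. So the call at these genes concerns 1 RefSeq start each and not the whole gene.

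Among the 8 ligands whose strongest start regions overlapped between the libraries, WNT10B had the one ratio interval that left out 1. Its pileup was 82 in primed and 43 in hTBLC, with a scaled ratio of 0.48 (0.32 to 0.70). That region, chr12:48965146-48965811, lay at the gene end of lower coordinate. No strand was given for WNT10B, so the region need not be its start. Over 14388 protein-coding genes with overlapping start regions, 14.1% had an interval below 1, 17.2% one above 1, 2.18% a ratio of at least 2 and 4.69% one of at most 0.5. WNT8A had 18 in both libraries (ratio 0.91, 0.45 to 1.86). WNT3, which acts in primitive streak formation, had 33 and 29 in strongest regions that did not overlap, which also held for WNT7A, WNT9A, WNT11 and the antagonist DKK2. Of these, WNT9A had a start region matched 1 to 1, at chr1:227946635-227947286, with 88 in primed and 52 in hTBLC (0.54, 0.38 to 0.77), and another with 56 and 54 (0.88, 0.60 to 1.30). The matched start regions of WNT3 had 33 and 25 (0.69, 0.39 to 1.2) and 30 and 29 (0.88, 0.51 to 1.52), and those of WNT7A had 42 and 40 (0.87, 0.55 to 1.38) and 34 and 51 (1.37, 0.87 to 2.18), all with intervals that included 1.

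Receptor starts were at least as open in hTBLC as in primed at most genes, and 4 of the 11 with a ratio had an interval above 1. FZD8 had a primed pileup of 99 (80.5 to 121) and an hTBLC pileup of 209 (182 to 239), so its scaled ratio was 1.93 (1.51 to 2.48). FZD1 had the highest start of all 45 genes in both libraries, 193 in primed and 359 in hTBLC, with a ratio of 1.70 (1.42 to 2.04). FZD5 had 152 and 243, a ratio of 1.46 (1.19 to 1.80). FZD10, measured at either end, had 43 and 75, a ratio of 1.59 (1.08 to 2.38). Frizzled proteins are the membrane receptors that bind WNT ligands. The 4 of 11 stands beside 17.2% of all start regions with an interval above 1. The median log2 ratio at starts was 0.24 for the 11 receptors and 0.03 over all overlapping start regions.

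The other receptor starts had intervals that included 1. FZD7, a Frizzled receptor prominent in human embryonic stem cells, had 98 in primed and 120 in hTBLC (ratio 1.12, 0.85 to 1.48). LRP6, the co-receptor, had 63 and 74 (1.07, 0.76 to 1.53). Its partner LRP5 had no primed start region and a weak hTBLC one of 19 (11.4 to 29.7), 181 bp of which lay in the promoter window shown above. That call concerns 1 RefSeq start. A shared region at the upstream end of the annotated LRP5 body, chr11:68297752-68298484, had 64 in primed and 39 in hTBLC. With a start window of 2500 bp no start was in hTBLC alone. The FZD7 and LRP6 values leave room for ratios on either side of 1.

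The antagonists were all open at the start in both libraries, with hTBLC pileups above primed at each of the 9. DKK1, the secreted LRP inhibitor, had 79 (62.5 to 98.5) in the primed library, 129 (108 to 153) in the hTBLC library and thus a scaled ratio of 1.49 (1.12 to 2.0). DKK4 had 134 and 198, a ratio of 1.35 (1.08 to 1.70), at the gene end of higher coordinate. The primed summit there lay 385 bp outside the gene body. No strand was given for DKK4, so that region need not be its start. SFRP2, a WNT-binding decoy, had 163 and 212 with an interval that included 1 (1.19, 0.96 to 1.47). The lowest background was higher in hTBLC by the factor of 1.09, while total reads are unknown. If that factor reflects depth, raw pileups lean the same way at an unchanged site. After scaling, 2 of 8 antagonists with a ratio had an interval above 1 and none had one below, beside 17.2% and 14.1% of all overlapping start regions.

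In the nuclear group the TCF7L1 start was higher in hTBLC and the other intervals included 1. TCF7L1, the factor also called TCF3 that restrains pluripotency genes, had 112 in primed and 166 in hTBLC (ratio 1.36, 1.06 to 1.74). LEF1, a β-catenin partner, had 121 in both libraries (0.91, 0.70 to 1.19). AXIN2, a feedback inhibitor and common readout of canonical signalling, had 68 and 69 (0.93, 0.65 to 1.32). The intervals of TCF7 and TCF7L2 also included 1.

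The authors' fold, which divides a summit by the local background of the same library, did not always follow the pileup. Of the 7 starts with an interval above 1, the fold was higher in hTBLC at 5. It went from 6.67 to 7.94 at FZD8, from 11.2 to 13.6 at FZD1, from 6.68 to 11.4 at FZD5, from 5.41 to 5.82 at FZD10 and from 7.74 to 11.2 at TCF7L1. At DKK1 it was 9.83 and 9.79, and at DKK4 17.5 and 16.8. At DKK1 and DKK4, then, the local background in hTBLC was higher along with the summit. The fold also rose by less than the pileup at FZD8, FZD1 and FZD10, so the local background was higher there too. It rose about as much as the pileup at FZD5 and TCF7L1. At the gene-end region of WNT10B the fold was 11.3 in primed and 8.18 in hTBLC, the same direction as its pileup. Over the 32 genes with overlapping start regions it was higher in hTBLC at 17.

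Over whole windows, starts included, library-only regions split between the directions much as in all gene windows. Among hTBLC regions they were less frequent than in gene windows, with an interval that left out that share. Among primed regions the interval included it. The 45 windows held 849 primed regions, of which 293 (34.5%, Wilson 95% interval 31.4 to 37.8) overlapped no hTBLC region, against 37.1% in the windows of all protein-coding genes and 37.3% of all primed regions. They held 817 hTBLC regions, of which 262 (32.1%, 29.0 to 35.3) overlapped no primed region, against 35.9% in gene windows and 39.2% of all hTBLC regions. Of the 555 library-only regions 47.2% were hTBLC-only (43.1 to 51.4), near the 48.9% of all gene windows and the 52.1% of all regions. These intervals treat regions as independent, although regions of 1 gene share a locus.

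By role, the hTBLC-only share was 42.2% for ligands (35.2 to 49.5, 104 primed-only and 76 hTBLC-only regions) and 45.7% for receptors (37.7 to 54.0, 76 and 64). It was 59.1% for antagonists (48.6 to 68.8, 36 and 52), with 56.1% for the SFRP family and 64.5% for the DKK family (46.9 to 78.9, 11 and 20). The nuclear group had 47.6% (39.7 to 55.7, 77 and 70). Each of these intervals held the 48.9% of all gene windows, and those of ligands and antagonists overlapped. Of their own primed regions, antagonists had 24.8% called in primed alone (18.5 to 32.4), an interval that left out the 37.1% of gene windows. Of their own hTBLC regions, ligands had 27.5% called in hTBLC alone (22.6 to 33.1), an interval that left out 35.9%. The reverse shares were 32.5% of antagonist hTBLC regions (25.7 to 40.1) and 34.3% of ligand primed regions (29.2 to 39.8). Their intervals included the gene-window shares, as did those of receptors and the nuclear group in both libraries. Among the 50000 strongest regions of each list the hTBLC-only share of library-only regions was 52.4% for ligands and 73.3% for antagonists, with 48.1% in gene windows at that setting. These shares rest on fewer regions than the main ones and have no interval, so no difference from gene windows is drawn from them.

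**Figure D2:**
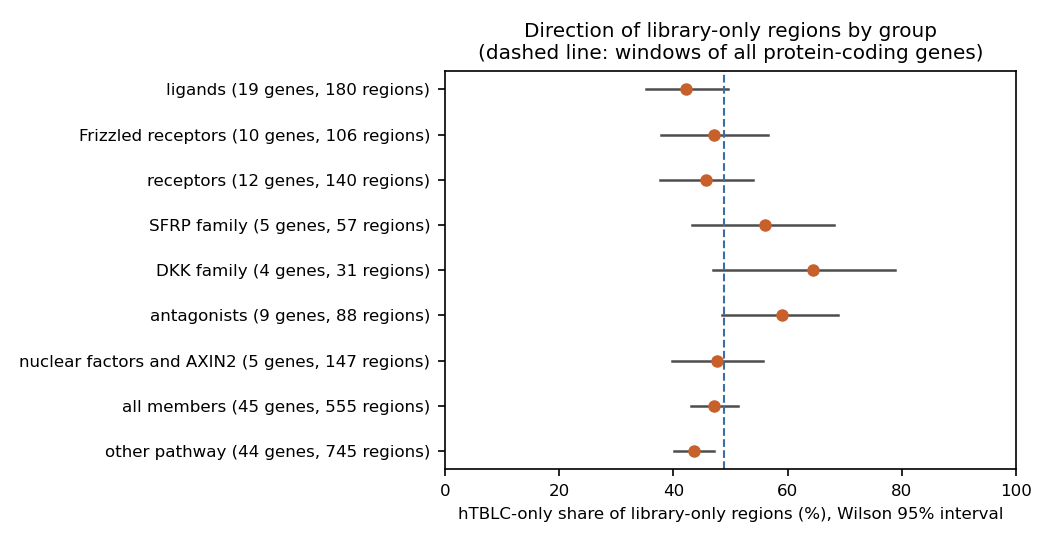
Share of library-only regions that were hTBLC-only, in percent, with Wilson 95% intervals, for each group of genes and for the other pathway genes described at the end. The dashed line marks the 48.9% of all protein-coding gene windows, which lies inside every interval except that of the other pathway genes.

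Gene by gene, 23 of 45 had more primed-only regions, 17 had more hTBLC-only regions and 5 had equal numbers, beside 52.1%, 33.4% and 14.5% of all gene windows. Primed-only regions were the more frequent kind at 12 of 19 ligands, 7 of 12 receptors and 2 of 5 nuclear genes. At antagonists the count was 2 of 9, with 6 of 9 leaning to hTBLC and 1 equal. WNT1 and WNT10B, WNT3 and WNT9B, WNT3A and WNT9A, and WNT6 and WNT10A are neighbours with overlapping windows, so these 8 genes share regions. Bodies of 66 other protein-coding genes also reach into the windows, so a region near a WNT gene need not act on it. At a −log10 q of at least 10, 3 antagonists and 11 of the 45 genes leaned to hTBLC.

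**Figure D3:**
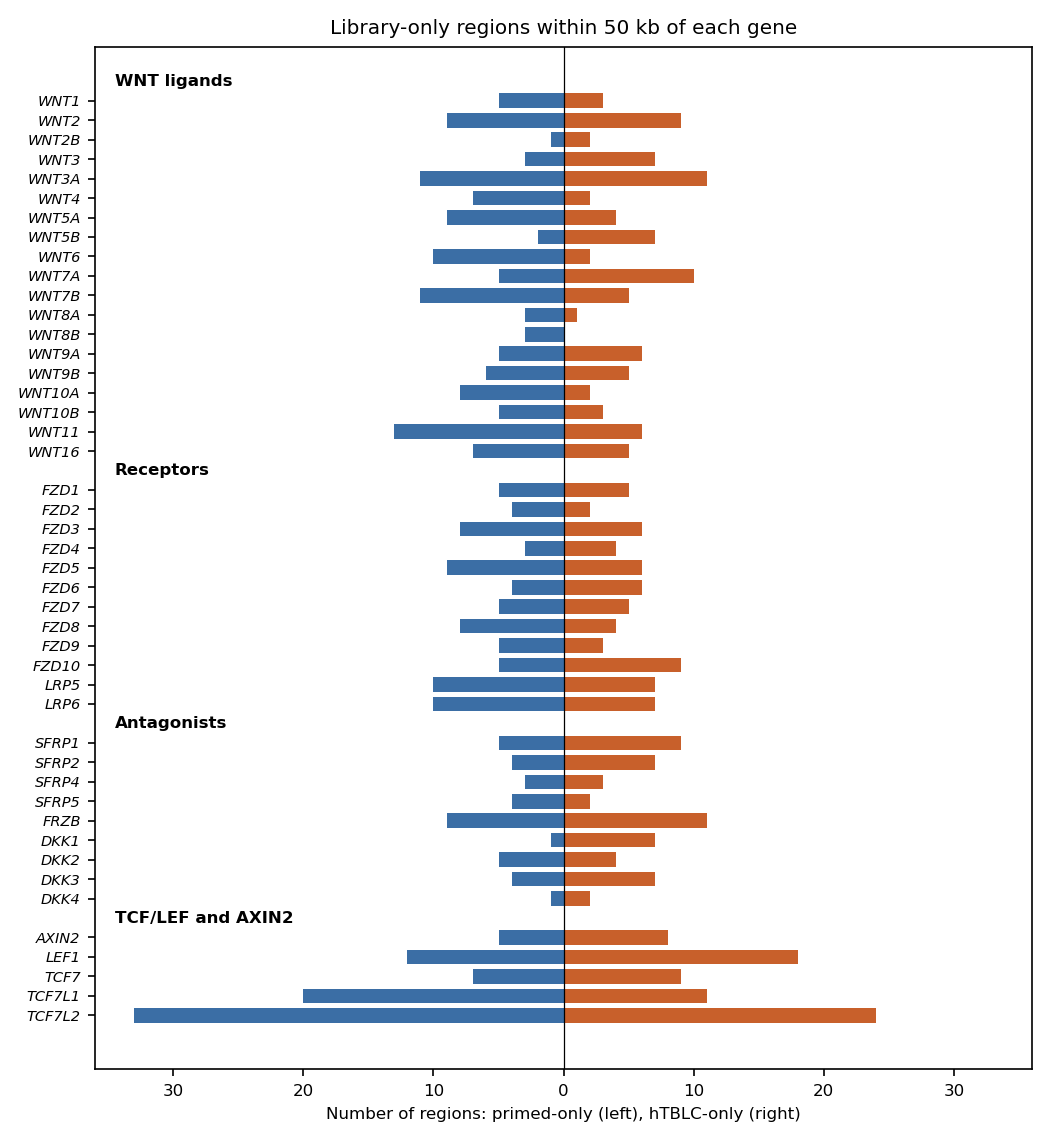
Number of primed-only (left, blue) and hTBLC-only (right, orange) regions in the window of each gene, in 1 library each. WNT6, WNT11 and TCF7L1 extend to the left, DKK1 and LEF1 to the right, and TCF7L2 has the longest bars, 33 and 24.

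Among ligands the widest differences were at WNT6, WNT11, WNT10A and WNT7B. At WNT6 there were 10 primed-only regions against 2 hTBLC-only ones. Its neighbour WNT10A, whose window it largely shares, had 8 and 2. WNT11, a non-canonical ligand, had 13 and 6, and WNT7B, a ligand of lung and kidney development, had 11 and 5. Summed over all regions in its window, the pileup of WNT6 was 584 in primed and 345 in hTBLC, that of WNT10A 554 and 329, and that of WNT11 747 and 582. The excess at WNT6, WNT10A and WNT7B rested on weaker calls: at a −log10 q of at least 10 the difference, hTBLC-only minus primed-only, went from −8 to 1 for WNT6 and from −6 to 1 for WNT10A and for WNT7B. WNT3 leaned the other way with 3 and 7, WNT3A had 11 and 11, WNT5A 9 and 4, and WNT8A 3 and 1.

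The strongest ligand regions that differed lay away from the starts. At the end of WNT3A opposite its start, at chr1:228059480-228061205, a primed region with a pileup of 143 overlapped 3 hTBLC regions, the strongest of 24, a ratio of 0.15 (0.10 to 0.24). A region 7489 bp upstream of WNT3A had 86 in primed and 34 in hTBLC (0.36, 0.24 to 0.54). In the body of WNT2B, a region 49213 bp past the start was higher in hTBLC, with 29 in primed and 145 in hTBLC (4.57, 3.05 to 7.07). The lowest ratio among matched regions of all 45 genes lay 23659 bp from the body of WNT7B, at chr22:45896239-45897040, with 62 in primed and 9 in hTBLC (0.13, 0.06 to 0.27). Beside WNT7A, a ligand of neural development, a region of 90 in hTBLC at chr3:13811760-13812587 had no primed region within 15602 bp. An hTBLC-only region of 83 lay 32529 bp upstream of WNT5B. Primed-only regions of 51 in the body of WNT9B, 46 beside WNT2 and 44 beside WNT11 were the strongest of that kind at ligands. The WNT9B one, at chr17:46876233-46876776, was 10850 bp from the nearest hTBLC region. Where several regions of a library overlap, as at the WNT3A end, the highest pileup of each library was compared, and over 147730 such chains 7.67% had a ratio of at least 2 and 13.2% one of at most 0.5. The single regions with the widest ratios here and below were chosen after their values were seen. The 2 summits of a matched pair can also lie apart, so their pileups need not come from 1 site. The summit shift, the hTBLC position minus the primed one, was −257 bp at the WNT7B region.

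Receptor loci held differences in both directions, some of them within 1 gene. FZD10 had 5 primed-only and 9 hTBLC-only regions, FZD8 had 8 and 4, FZD5 had 9 and 6, and LRP5 and LRP6 each had 10 and 7. At FZD8 the 2 kinds of measure pointed apart: primed-only regions were more numerous, while the shared regions at the start and in the body were higher in hTBLC. Its chain of overlapping regions 1236 bp past the start had 51 in primed and 130 in hTBLC (ratio 2.33, 1.67 to 3.29), and its strongest hTBLC-only region, 6622 bp past the start, had 54. At 47576 bp past the start a region had 47 in primed and 9 in hTBLC (0.18, 0.08 to 0.36), with a summit shift of −451 bp. FZD7 had hTBLC-only regions of 75 and 53 in its body, and a region 37593 bp from the body of 125 in primed and 45 in hTBLC (0.33, 0.23 to 0.47). The strongest primed-only receptor regions were 61 beside FZD2, 57 in FZD5, where the hTBLC list had a region 153 bp away, and 56 beside FZD6. In the body of LRP5, 61087 bp past the start, a region had 9 in primed and 52 in hTBLC (5.28, 2.58 to 12.19). Its summit shift of 627 bp exceeded the 473 bp width of the primed region, so the hTBLC summit lay outside that region. Another region in the LRP5 body, at chr11:68341873-68343111, had 58 and 21 (0.33, 0.19 to 0.55).

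DKK1 was the antagonist whose window differed most by count. It held 3 regions in primed and 9 in hTBLC, 1 and 7 of them library-only, with summed pileups of 148 and 359. The 2 shared regions carried most of that signal. They were the start region and a region 5846 bp upstream, at chr10:52308279-52309049, with 57 in primed and 125 in hTBLC (2.01, 1.45 to 2.79), where the fold also went from 10.9 to 13.6. The 7 hTBLC-only regions were weak, from 9 to 31, and at a −log10 q of at least 5 the difference in library-only regions was 0. The higher pileups at the shared pair are thus separate from the count of library-only regions.

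The other antagonists followed with smaller differences in count. At SFRP1 there were 5 primed-only regions against 9 hTBLC-only ones, and at DKK3 4 against 7. SFRP2 had 4 and 7, and SFRP5 and DKK2 had more primed-only regions, 4 and 2 in SFRP5 and 5 and 4 in DKK2. DKK3, the divergent family member, held the strongest hTBLC-only region of all 45 windows, 92 (74.2 to 113) in its body at chr11:11972096-11972663, 4177 bp from the nearest primed region, with another of 60 close by. FRZB, also called SFRP3, had hTBLC-only regions of 67 and 54 upstream of its start, within 715 bp and 192 bp of primed regions, and a primed-only one of 45. SFRP1 held the strongest primed-only region, 63 (48.4 to 80.6) in its body, 376 bp from an hTBLC region. DKK2 had 1 body region with 31 in primed and 100 in hTBLC (2.95, 1.95 to 4.57), a distant region with 63 and 13 (0.19, 0.10 to 0.35), and a primed-only body region of 46. A region 45912 bp upstream of SFRP2 had 10 and 55 (5.03, 2.54 to 11.07).

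Among the nuclear genes, library-only regions leaned to primed at TCF7L1 and TCF7L2 and to hTBLC at LEF1, AXIN2 and TCF7. TCF7L1 had 20 primed-only and 11 hTBLC-only regions, TCF7L2 33 and 24, LEF1 12 and 18, and AXIN2 5 and 8. TCF7L1 held the highest ratio of hTBLC to primed among matched regions of all 45 genes, in its body 56225 bp past the start at chr2:85189390-85189731, with 13 in primed and 105 in hTBLC (7.38, 4.14 to 14.33). The summit shift of that pair was 165 bp. Further along, at 101719 bp, TCF7L1 had 70 and 190 (2.48, 1.88 to 3.31), and at 104573 bp it had 140 and 79 (0.52, 0.39 to 0.68). Its strongest hTBLC-only region was 59. The TCF7L1 body thus held stronger and weaker regions in hTBLC a few kb apart.

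The same mixture was present at the other nuclear genes. TCF7L2, a main β-catenin partner in many tissues, had its strongest region in the body, 208 in primed and 101 in hTBLC (0.44, 0.35 to 0.57), and another body region of 42 and 105 (2.29, 1.58 to 3.35). The summit shift of the latter was 291 bp. LEF1 had body regions of 41 and 117 (2.61, 1.81 to 3.82) and of 82 and 38 (0.42, 0.28 to 0.63), and an hTBLC-only region of 62 located 4431 bp outside the body. AXIN2 had body regions of 30 and 69 (2.10, 1.35 to 3.34) and of 15 and 41 (2.50, 1.35 to 4.86). Outside its body it had regions of 166 and 82 (0.45, 0.34 to 0.59) and of 86 and 34 (0.36, 0.24 to 0.54), and in its body a primed-only region of 47. No single direction described AXIN2 or LEF1.

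**Figure D4:**
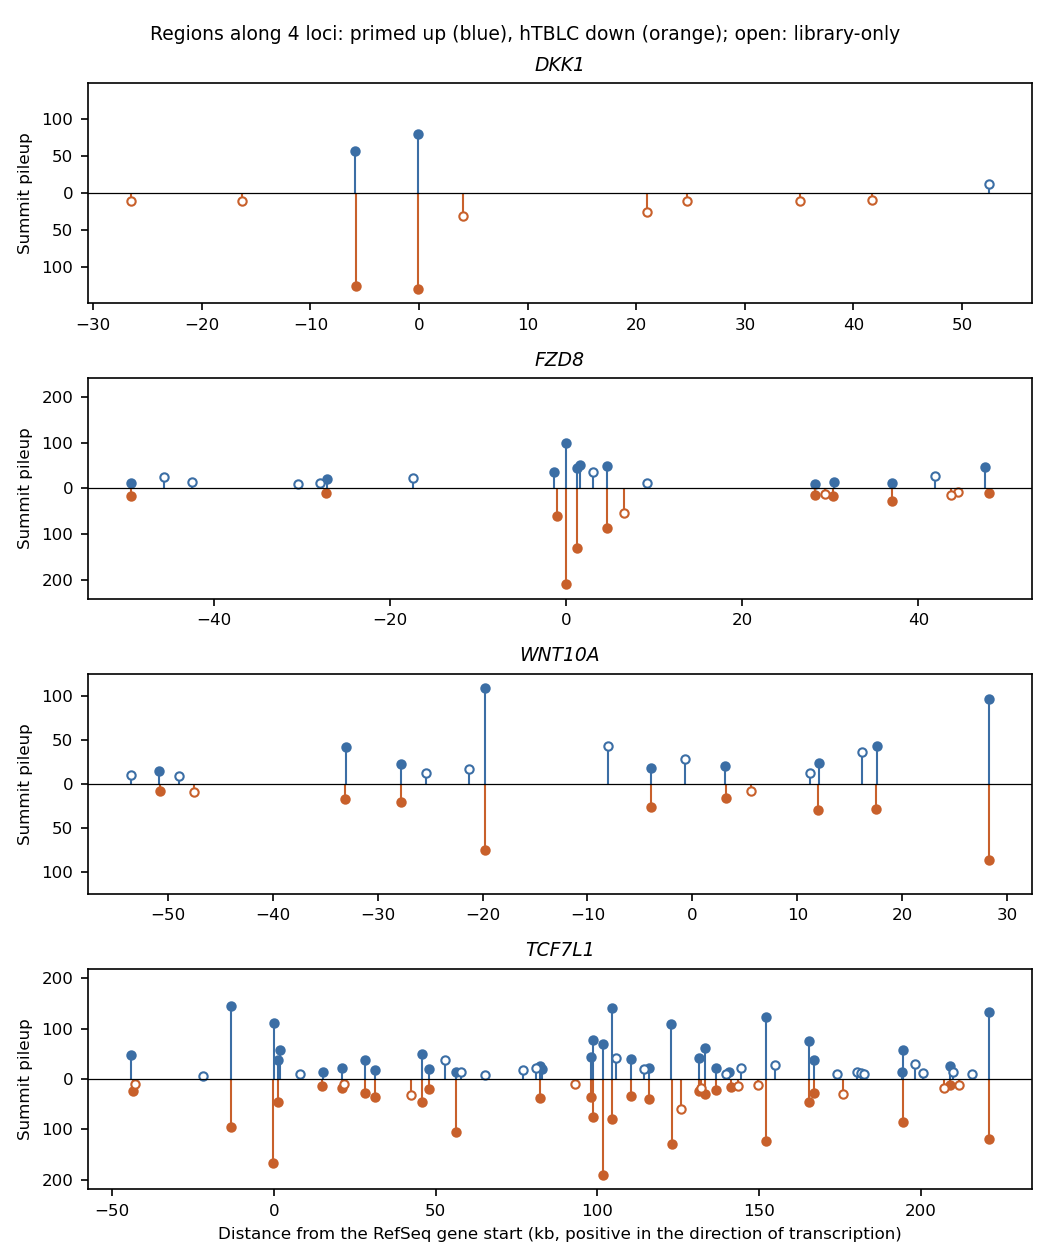
Summit pileups of all regions along DKK1, FZD8, WNT10A and TCF7L1, primed upward and hTBLC downward, against distance from the RefSeq start in kb, with open circles for library-only regions. DKK1 has 2 tall shared regions and 7 short hTBLC-only ones, and TCF7L1 has a tall hTBLC region near 56.39 kb over a short primed one.

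Over all 492 regions of the 45 windows that matched 1 to 1 between the libraries, the median log2 ratio was −0.13, the same as over all 139523 such regions. A ratio of at least 2 was found at 36 (7.32%) and of at most 0.5 at 60 (12.2%), beside 7.69% and 13.3% of all matched regions and 6.69% and 13.4% of those in gene windows. The median was −0.13 for 172 ligand regions, −0.11 for 122 receptor regions and −0.17 for 102 nuclear regions. It was 0.10 for 96 antagonist regions, with 0.39 for the 33 of the DKK family and 0.06 for the 63 of the SFRP family. Quartiles over all matched regions were −0.63 and 0.36. Ligands had 8 regions at or above 2 and 23 at or below 0.5, receptors 9 and 14, antagonists 12 and 11, and nuclear genes 7 and 12. Without scaling, the median over all matched regions was 0.00 and so was that of the 45 genes.

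**Figure D5:**
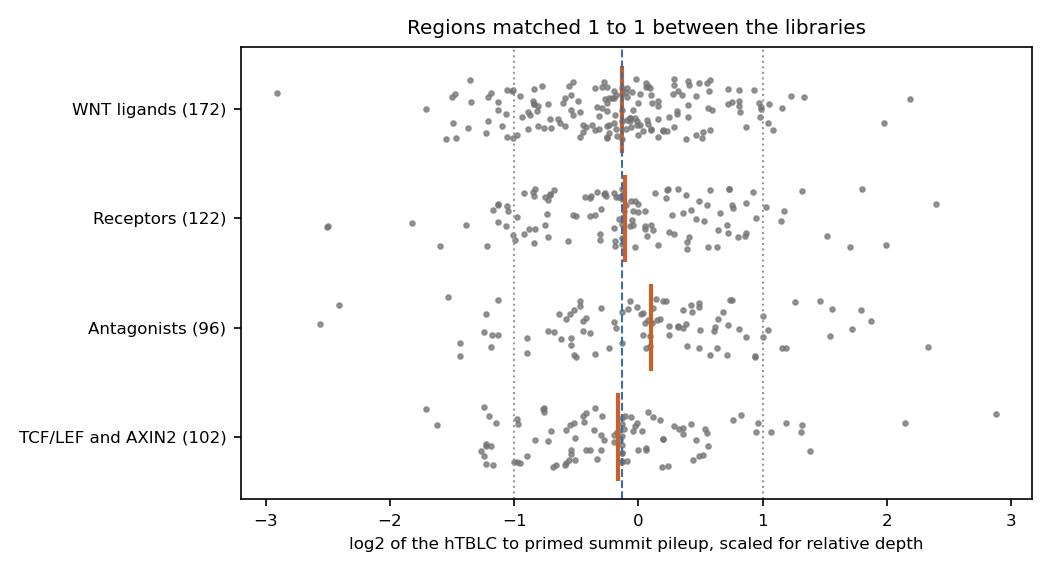
The log2 ratio of hTBLC to primed summit pileup, scaled for relative depth, for each region matched 1 to 1, with the group median (orange bar), the median of all matched regions (dashed line) and ratios of 2 and 0.5 (dotted lines). The antagonist median lies at 0.10 and the others at −0.11 to −0.17, against −0.13 overall.

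The rest of the pathway held more primed-only than hTBLC-only regions. A list of 44 further genes covered WNT secretion (WLS and PORCN), R-spondins and their receptors, Dishevelled proteins, the destruction complex and nuclear co-factors. It held 420 primed-only and 325 hTBLC-only regions, an hTBLC-only share of 43.6% (40.1 to 47.2), an interval below the 48.9% of all gene windows that overlapped the one of the 45 genes. ROR1, a WNT5A receptor tyrosine kinase singled out after its values were seen, had 52 and 23, and without it the share was 45.1% (41.3 to 48.9), whose upper end met the share of gene windows. More primed-only regions were found at 30 of the 44 and more hTBLC-only regions at 14, beside 52.1% and 33.4% of all gene windows. Start regions were present in both libraries at 43 of 44 and in neither at 1, SOST, the gene of the antagonist sclerostin. Over all protein-coding genes the shares were 76.4% and 17.6%. The 43 counted NOTUM, whose primed and hTBLC start regions lay at opposite ends of the gene and touched no region of the other library. The strongest start regions of BCL9L also lay at opposite ends, but each touched a region of the other library. Of the 38 with a ratio at the start, 7 had an interval above 1 and 3 one below, beside 17.2% and 14.1% of all overlapping start regions. The one past 2 was NKD1, a Dishevelled-binding feedback inhibitor induced by WNT signalling, with 27 in primed and 60 in hTBLC (2.03, 1.27 to 3.33) at either end of the gene. Of its library-only regions 9 were primed-only and 14 hTBLC-only.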

How the data were processed

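ATAC-seq of 1 primed and 1 hTBLC library was compared. The submitters' processing notes name Bowtie2, Picard, MACS2 and the build hg38; no version or setting is named there, and how reads were treated is not given in the sources used here. The authors deposited, per peak, a score (not used), a fold ratio of summit to local background, a −log10 p and a −log10 q, called in each library separately. Other columns of the deposited lists give positions and the summit offset. The lowest deposited −log10 p was 2.00 in primed and 2.83 in hTBLC, and 252 and 327 ranks were without a line. Whole pileups were solved from fold and −log10 p for 99.999% and 99.998% of peaks. Total reads are unknown here, and depth was taken from the lowest background.

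Peaks that overlapped or touched were joined into regions (chromosomes 1 to 22 and X), and 1 bp of overlap made regions shared. Ratios at starts use the strongest start regions where these overlap, and elsewhere regions that match 1 to 1. Chains of all overlapping regions and the pathway list without ROR1 were alternatives added after the data were seen. Poisson, binomial (Clopper-Pearson) and Wilson intervals have a level of 95%. Gene positions and sequences are from RefSeq (GRCh38.p14). Genes and lists were chosen with earlier results of these data known. Values are given for genes with a start in 1 library, a start interval that leaves out 1, the 3 widest count differences of each role (ties included) or 1 of the 10 strongest library-only regions of each kind, and for 12 genes chosen by name. Alternatives changed the threshold, overlap, windows, scaling and matching. Steps were tested on simulated data, with Python 3.11.15, numpy 2.4.6, pandas 2.3.3, scipy 1.17.1 and matplotlib 3.10.9.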

Additional observations from a re-analysis of the deposited data

How the results depend on the processing

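The hTBLC-only share of library-only regions moved most among the 50000 strongest regions of each list: 52.4% for ligands, which put them above rather than below the 48.1% of gene windows, 56.7% for receptors, 73.3% for antagonists and 57.1% for all 45 genes. These shares rest on fewer regions and are given without intervals. In windows of 10 kb the receptor share was 36.8%, beside 47.9% in the windows of all protein-coding genes. At a −log10 q of at least 5 the share of the other pathway genes was 35.9%, and that of all gene windows was also lower, 43.1%. The primed-only share of primed regions was 30.7% with a −log10 q floor of 5 and 30.6% with 10, 27.7% among the strongest 50000, 47.7% with 50% reciprocal overlap, 28.2% with regions within 500 bp counted as shared and 37.8% in gene bodies. The hTBLC-only share was 27.6% and 27.5% at a −log10 q of 5 and 10, and 45.7% and 26.2% under the overlap settings. Without scaling, and scaled to a median of 1, the median log2 ratio was 0.00 and 0.00 for ligands, −0.04 and −0.04 for nuclear genes and 0.00 and 0.00 for all genes. Starts in primed alone numbered 1 with a window of 2500 bp, 2 at a −log10 q of 5 and 0 among the strongest 50000. Starts in hTBLC alone numbered 2 with a window of 500 bp, 0 with 2500 bp, 3 at a −log10 q of 5 and 5 among the strongest 50000. Starts in neither numbered 4, 5 and 15 with a window of 500 bp, at a −log10 q of 5 and among the strongest 50000. At a −log10 q of 10, 3 antagonists and 11 of all genes leaned to hTBLC, and WNT6 went from −8 to 1. Among the strongest 50000, 13 genes leaned to primed. The cause of these changes was not tested, except that stricter lists hold fewer regions. No paired analysis was possible because each group has 1 library and no replicate number. The main limits are the single library of each state and the unknown read depth.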

Other observations

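Region numbers on either side of the 50 kb edge were counted to show what the window leaves out. In the outermost 5 kb inside the windows there were 47 primed and 46 hTBLC regions, and in the first 5 kb outside there were 45 and 54. The nearest primed region inside lay 49908 bp from SFRP5, a secreted antagonist, and had a pileup of 35. The nearest outside lay 50128 bp from WNT5A and had 13.

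Few of the library-only regions of the 45 windows were strong. Of 293 primed-only regions 33 had a pileup of at least 30, and of 262 hTBLC-only regions 28 did. A region of the other library lay within 500 bp of 54 primed-only regions and of 48 hTBLC-only ones. Their median pileups were 13.0 and 14.0.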
